A study of Mus musculus with 16 samples.

Results

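The change from the DN2-3 to the DN4 stage was measured in thymocytes of NOD mice that carry the BDC2.5 T cell receptor (TCR) transgene. It was taken by group label as the comparison of the 2 BDC/NOD DN4 arrays with the 2 BDC/NOD DN2-3 arrays, 4 of the 16 arrays of the series. BDC/NOD DN4 cells were lineage-negative thymocytes without CD4, CD8, CD44 or CD25, and BDC/NOD DN2-3 cells were lineage-negative thymocytes without CD4 or CD8 that carried CD25. Both came from BDC2.5 TCR-transgenic NOD mice 4 weeks old, after CD4 and CD8 cells had been killed with complement, and were sorted by flow cytometry. The same 2 stages, from mice of the same age, were measured in BDC/B6g7 mice (the BDC2.5 transgene on C57BL/6 mice that carry the NOD MHC haplotype), in non-transgenic NOD mice and in non-transgenic B6g7 mice, with 2 arrays a group. In each BDC group replicate 1 was from male and replicate 2 from female mice, and all non-transgenic arrays were from female mice. The labels give neither the promoter of the transgene nor the number of animals behind an array. The error given thus rests on the spread between arrays within groups, pooled over the 8 groups, and part of it may be technical.

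Double-negative (DN) thymocytes, which have neither CD4 nor CD8, pass through stages marked by CD25, the alpha chain of the interleukin-2 receptor, and then lose it at the DN4 stage. In mice with a polyclonal repertoire the TCR beta chain is rearranged before that loss, and cells in which it pairs with the pre-TCR alpha chain survive, divide quickly and go on to express CD4 and CD8. BDC2.5 is a CD4 T cell clone from a diabetic NOD mouse, and mice that carry its rearranged TCR genes express a complete alpha-beta TCR already in double-negative cells. NOD mice develop autoimmune diabetes. The comparison asks which genes differ between the 2 stages where that receptor is present on the NOD background.

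Values are log2 intensities of Affymetrix Mouse Gene 1.0 ST arrays, given in the order replicate 1 (male) and replicate 2 (female). The BDC/NOD arrays had median intensities from 129.4 to 134.2, and the replicates correlated across genes with r = 0.997 in DN4 and 0.996 in DN2-3. The 2 NOD DN2-3 arrays were the pair farthest apart, with a median absolute log2 difference of 0.242, against 0.0856 to 0.136 in the other 7 pairs. Xist and the Y-linked genes fitted the labelled sex on all 16 arrays. The highest Y-linked signal on a female array, 5.98 log2, served as the background level, a choice made with the values known. Where the mean of a BDC/NOD group is at or under it, only a bound ("at least") is given for its stage change, reckoned with lower signals set to that level. In "a ± b", a is the DN4 minus DN2-3 difference in log2 and b its standard error from limma.

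Chemokine receptor and adhesion genes had the largest increases in BDC/NOD DN4 cells, and the interleukin-2 receptor gene used for sorting, a feedback inhibitor of cytokine receptors and interferon-induced membrane proteins had the largest decreases. Of 10689 genes tested, 1185 (11.1%) passed the limma test at an adjusted p of 0.05, 820 of them (7.67%) higher and 365 (3.41%) lower in DN4 than in DN2-3 cells. Most changes were small: 126 of the 1185 reached 2-fold, 89 higher and 37 lower, and the median absolute difference was 0.15 log2 over all genes tested and 0.52 over the called genes. In all 1185 called genes the 2 DN4 arrays did not overlap with the 2 DN2-3 arrays, which also held for 69.1% of all genes tested. The test pools the spread of the 8 groups, so the count depends on arrays outside the comparison: without either NOD DN2-3 array it was 2359. Without DN2-3 replicate 1 or 2 or DN4 replicate 1 or 2 of BDC/NOD it was 563, 417, 500 and 432. Within 1 sex, 116 genes were called without the 4 male BDC arrays and 67 without the 4 female BDC arrays. Less RNA of a gene per cell and fewer cells that carry it cannot be told apart in these sorted populations.

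**Figure D1:**
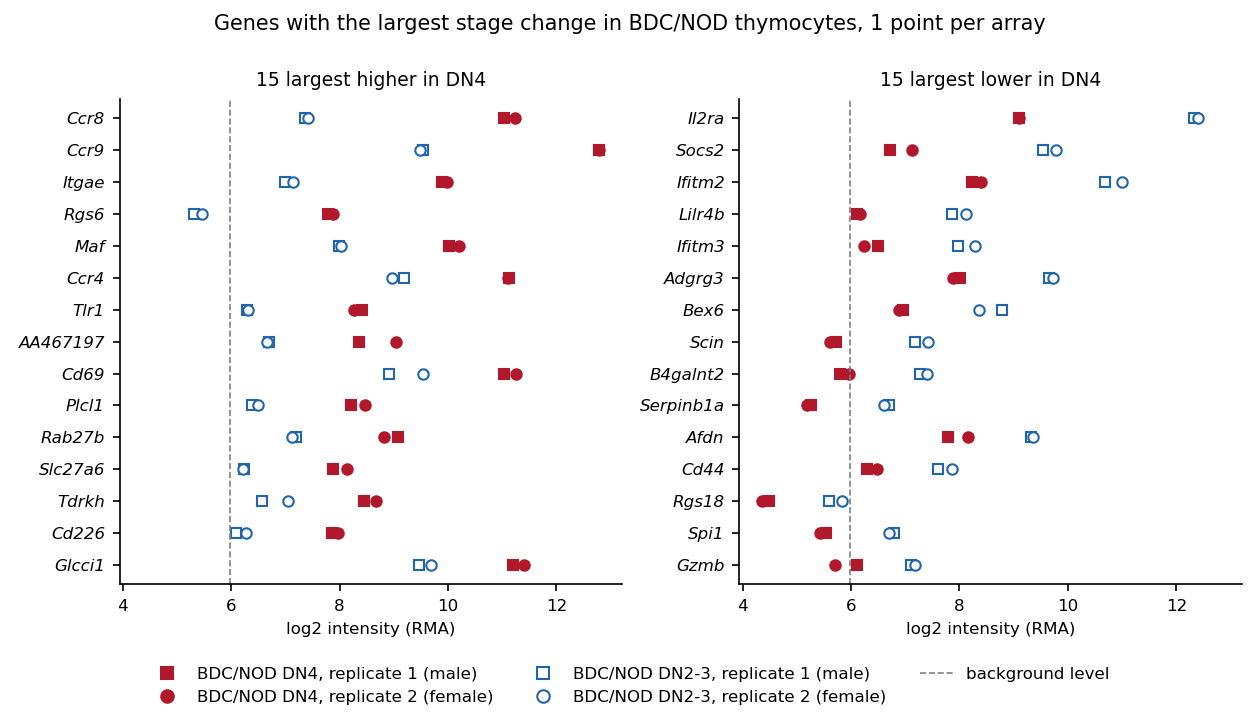
Log2 intensity (x axis) of the 15 genes with the largest increase (left) and the 15 with the largest decrease (right) in BDC/NOD DN4 cells, with 1 point per array, DN4 filled and DN2-3 open, squares for male and circles for female mice, and the background level of 5.98 as a dashed line. The DN4 and DN2-3 points do not overlap for any gene, Rgs6 lies under the background level in DN2-3, and Rgs18 lies under it on all 4 arrays.

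The genes behind the sort gates are a check of the labels, and Il2ra and Cd44 followed the gates. Il2ra, which encodes CD25, read 9.09 and 9.10 in BDC/NOD DN4 cells, against 12.32 and 12.40 in BDC/NOD DN2-3 cells, a fall by 3.27 log2 (SE 0.12, limma adjusted p = 6.5e-09). Cd44, the adhesion receptor that also defined the DN4 gate, read 6.30 and 6.49 in DN4 and 7.61 and 7.85 in DN2-3 cells, a difference of -1.34 ± 0.11. Both were chosen by the sort and are no result of the comparison. The coreceptor genes, whose proteins both gates excluded, were higher in DN4 cells. Cd8a read 8.51 and 8.57 in DN4 against 7.05 and 7.32 in DN2-3 cells (1.35 ± 0.18), Cd8b1 differed by 1.14 ± 0.22 and Cd4 by 0.61 ± 0.14. The DN4 arrays lay above the DN2-3 arrays in each case.

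Ccr8, a chemokine receptor best known from skin-homing, type 2 helper and regulatory T cells, had the largest increase of all genes tested. It read 11.03 and 11.24 in BDC/NOD DN4 cells, against 7.35 and 7.42 in BDC/NOD DN2-3 cells, which was 13.4-fold higher (3.75 ± 0.17 log2, adjusted p = 3.7e-08). Ccr9, the receptor for CCL25 that guides thymocytes in the thymus and T cells to the gut, read 12.79 on both DN4 arrays and 9.54 and 9.48 on the DN2-3 arrays, 9.70-fold higher (3.28 ± 0.16). Ccr4, a receptor of medullary chemokines, read 11.13 and 11.11 in DN4, against 9.19 and 8.96 in DN2-3 cells (2.05 ± 0.13). For all 3 receptors the DN4 arrays were close to each other and far above both DN2-3 arrays. The 3 genes lie on chromosome 9 and rose together, so their promoter windows are shown, from 250 bases before to 50 bases after the gene start, as RefSeq gives them on GRCm38.p6, 5′ to 3′ in the direction of transcription.

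The windows are chr9:120091883-120092182 on the plus strand for Ccr8, chr9:123766961-123767260 on the plus strand for Ccr9 and chr9:114496495-114496794 on the minus strand for Ccr4. Capitals mark matches, on either strand, to the E-box sequences CAGCTG and CAGGTG, the NF-Y box CCAAT, the cell cycle homology region (CHR) TTTGAA, the E2F sites TTTCGCGC and TTTGGCGC, or the STAT site TTCNNNGAA, the last of which was added after values were seen.
Ccr8: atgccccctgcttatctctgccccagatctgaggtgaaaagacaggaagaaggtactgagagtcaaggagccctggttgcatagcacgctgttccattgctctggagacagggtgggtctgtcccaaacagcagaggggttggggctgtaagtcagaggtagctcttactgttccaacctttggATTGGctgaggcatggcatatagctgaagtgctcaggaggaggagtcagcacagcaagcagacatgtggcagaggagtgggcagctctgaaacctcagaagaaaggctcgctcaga
Ccr9: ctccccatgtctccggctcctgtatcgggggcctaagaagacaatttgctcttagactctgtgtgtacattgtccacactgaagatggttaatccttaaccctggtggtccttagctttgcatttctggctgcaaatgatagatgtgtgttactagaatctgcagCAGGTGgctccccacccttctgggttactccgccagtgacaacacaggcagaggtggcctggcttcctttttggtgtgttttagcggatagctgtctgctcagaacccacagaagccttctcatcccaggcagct
Ccr4: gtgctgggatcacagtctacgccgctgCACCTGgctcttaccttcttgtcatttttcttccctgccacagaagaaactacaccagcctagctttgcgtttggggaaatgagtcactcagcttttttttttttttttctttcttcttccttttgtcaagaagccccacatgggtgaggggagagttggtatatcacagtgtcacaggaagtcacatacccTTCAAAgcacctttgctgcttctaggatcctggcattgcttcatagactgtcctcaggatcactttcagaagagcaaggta

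Ccr8 holds a reverse CCAAT with its first base at -66 from the gene start, Ccr9 a CAGGTG at -85, and Ccr4 a reverse CAGGTG at -223 and a reverse TTTGAA at -31. No motif was found in all 3 windows. Of 32851 promoter windows of the same length, 20.2% hold CAGGTG, 37.4% CCAAT and 17.9% TTTGAA, so matches of this kind are common. Among the 900 windows of genes called higher in BDC/NOD DN4 the shares were 18.8%, 36.7% and 10.6%, against 18.0%, 37.5% and 11.8% of the 10991 windows of all genes tested. These windows cover 652 of the 820 higher genes and 8664 of the 10689 genes tested, and some genes have several windows. A match is a description of the letters and not a site of binding.

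Other genes of migration and adhesion moved with them. The trafficking and adhesion list had 27 tested members, of which 10 were higher and 2 lower in BDC/NOD DN4 cells, with a median difference of 0.35 log2, against -0.02 over all genes. Leaving out 1 BDC/NOD array at a time left 8 or 9 higher. Itgae, the alpha chain of the CD103 integrin that binds E-cadherin on epithelium, read 9.89 and 9.98 in DN4, against 6.98 and 7.14 in DN2-3 cells (2.88 ± 0.17). S1pr1, the sphingosine-1-phosphate receptor with which mature T cells leave the thymus, read 9.67 and 9.77 in DN4, against 8.93 and 9.01 in DN2-3 cells (0.75 ± 0.12, adjusted p = 0.0015). Cx3cr1 (0.95 ± 0.10), the integrin chains Itgb2 (0.75 ± 0.12) and Itgb3 (0.52 ± 0.11), and Ccr7 (0.59 ± 0.17), the receptor that draws T cells to lymph nodes, were also higher. The 2 lower members were Cd44 and Cxcr6, which differed by -0.58 ± 0.17. Klf2, the transcription factor that activates S1pr1 in mature T cells, did not pass, at 8.53 and 8.74 in DN4 against 8.30 and 8.16 in DN2-3 cells (adjusted p = 0.084).

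Some genes named for gamma-delta and innate-like T cells were among the larger increases. Of 27 tested members 12 were higher and 2 lower, against 7.67% and 3.41% of all genes tested. The median was 0.41, but the list was divided, with 15 differences above and 12 below 0. Maf, a transcription factor of gamma-delta T cells that make interleukin-17, read 10.01 and 10.21 in BDC/NOD DN4, against 7.98 and 8.02 in BDC/NOD DN2-3 cells (2.11 ± 0.14, adjusted p = 8.3e-07). Sox13, an early marker of the gamma-delta lineage, read 9.52 and 9.75 in DN4 against 8.63 and 8.72 in DN2-3 cells (0.96 ± 0.11). Etv5 (0.88 ± 0.10), an ETS factor of such cells, the kinase gene Blk (1.16 ± 0.14), Rora (1.12 ± 0.12), Cd163l1 (1.33 ± 0.11), a scavenger receptor gene of the family called WC1 in cattle, and the gene 5830411N06Rik (1.71 ± 0.10) were also higher. The 2 lower genes were Gzmb, which encodes a granzyme of cytotoxic cells, by at least 1.10 with a DN4 mean under the background level, and Tmem176b (-0.89 ± 0.09). Zbtb16, which encodes PLZF, the factor of innate-like NKT cells, read 7.86 and 7.91 in DN4 against 8.12 and 8.35 in DN2-3 cells and did not pass (adjusted p = 0.15). Ccr8 and Itgae also stand on this list. Of 4 tested genes of the TCR loci, 1 passed, the delta variable segment Trdv2-2 (0.69 ± 0.16).

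Genes of TCR signalling were higher in DN4 cells more often than lower. Of 36 tested members of the TCR complex and proximal signalling list, 13 were higher and 2 lower, with a median of 0.34 and 29 of 36 differences above 0. Prkcq, the protein kinase C isoform of the T cell synapse, read 11.56 and 11.59 in BDC/NOD DN4, against 10.46 and 10.43 in BDC/NOD DN2-3 cells (1.13 ± 0.08, adjusted p = 1.3e-06). The Tec kinase gene Txk (0.75 ± 0.13), the Ras regulator Rasal3 (0.70 ± 0.17) and Sla, an adaptor that limits TCR levels (0.62 ± 0.14), were the next largest. Zap70 (0.52 ± 0.09), the kinase that binds the phosphorylated TCR, Lcp2 (0.47 ± 0.12), its adaptor SLP-76, and Themis (0.48 ± 0.09) rose by less. Syk, the related kinase prominent at the pre-TCR stage, was lower, at 7.55 and 7.54 in DN4 against 8.10 and 8.05 in DN2-3 cells (-0.53 ± 0.13), and so was Vav3 (-0.42 ± 0.09). The number called higher was 6 or 7 without any 1 of the 4 BDC/NOD arrays, and 21 without either NOD DN2-3 array.

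Of 34 tested TCR-induced genes 11 were higher and none was lower, with a median of 0.31. Cd69, an early activation marker that also holds cells in the thymus, read 11.03 and 11.26 in BDC/NOD DN4, against 8.92 and 9.53 in BDC/NOD DN2-3 cells (1.92 ± 0.19, adjusted p = 3.3e-05). Dusp10, a phosphatase that damps MAP kinases (1.12 ± 0.14), the early growth response factors Egr2 (1.04 ± 0.14) and Egr1 (0.61 ± 0.16), the NF-kappaB inhibitor Nfkbid (0.77 ± 0.15) and Pdcd1, which encodes PD-1 (0.45 ± 0.10), were higher too. Of other genes that follow TCR signal strength, Cd5 read 9.38 and 9.23 in DN4 against 9.23 and 9.07 in DN2-3 cells (adjusted p = 0.36), and Nr4a1, which encodes Nur77, 12.82 and 12.86 in DN4 against 12.46 and 12.24 in DN2-3 cells (adjusted p = 0.42). Neither passed the test, and the arrays of Cd5 met at 9.23. Among 20 AP-1 and immediate-early genes 6 were higher and none lower, among them Klf6 (1.17 ± 0.13), Jun (1.04 ± 0.25), Fos (0.75 ± 0.14) and Btg2 (0.72 ± 0.12). Without any 1 of the BDC/NOD arrays, 6 to 8 TCR-induced genes and 4 immediate-early genes were higher.

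Costimulatory and inhibitory receptor genes had 13 of 24 tested members higher and 1 lower, with a median of 0.45. Cd226, a costimulatory receptor for nectin-family ligands, read 7.86 and 7.96 in BDC/NOD DN4, against 6.08 and 6.26 in BDC/NOD DN2-3 cells (1.74 ± 0.11, adjusted p = 6.2e-07). The SLAM family receptor genes Slamf1 (1.45 ± 0.15) and Cd84 (0.82 ± 0.14), Cd7 (0.77 ± 0.21), the costimulatory receptor genes Cd28 (0.64 ± 0.09) and Cd27 (0.50 ± 0.11) and the adhesion receptor gene Cd2 (0.50 ± 0.11) were higher. Havcr2, which encodes the inhibitory receptor TIM-3, was lower by at least 0.55. Icos, a costimulator of activated T cells, read 7.47 and 7.39 in DN4 against 7.40 and 7.87 in DN2-3 cells, so its arrays overlapped. The count of higher members was 5, 8, 9 and 5 without DN4 replicate 1, DN4 replicate 2, DN2-3 replicate 1 and DN2-3 replicate 2.

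**Figure D2:**
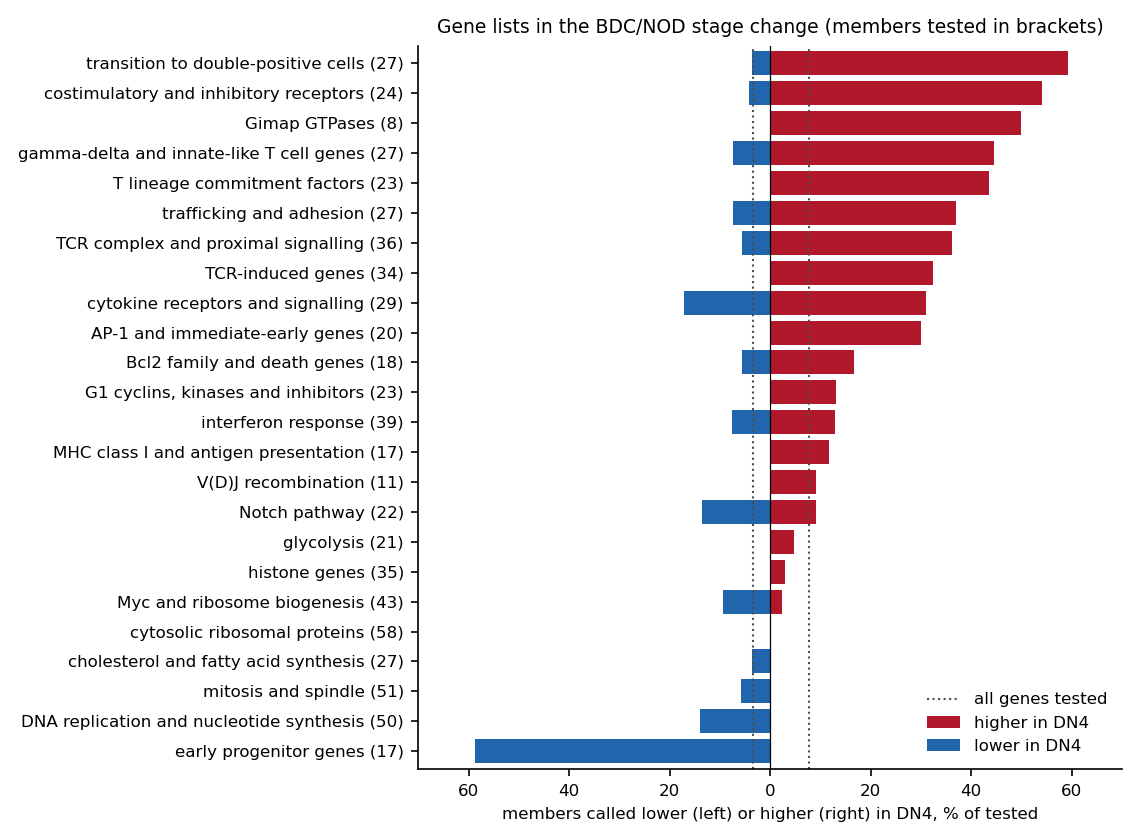
Share of the tested members of 24 gene lists (percent, x axis) that were called higher (red, right) or lower (blue, left) in BDC/NOD DN4 than in BDC/NOD DN2-3 cells, with the number of tested members in brackets and the shares over all genes tested (7.67% higher, 3.41% lower) as dotted lines. Genes of the double-positive transition had the highest share of increases (16 of 27), and early progenitor genes the highest share of decreases (10 of 17).

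Genes of the transition to CD4+CD8+ double-positive cells had 16 of 27 tested members higher and 1 lower, with a median of 0.50. St6gal1, a sialyltransferase of thymocyte surface glycans, read 10.51 on both BDC/NOD DN4 arrays, against 9.05 and 8.75 in BDC/NOD DN2-3 cells (1.61 ± 0.14, adjusted p = 1.1e-05). Cd53, a tetraspanin of lymphocytes (0.86 ± 0.09), Cd1d1, which presents lipids to NKT cells (0.56 ± 0.08), the coreceptor genes and Ccr9 stand on the same list. T lineage commitment factors had 10 of 23 higher and none lower, with a median of 0.35. Ikzf3, which encodes the Ikaros family factor Aiolos, read 9.38 and 9.20 in DN4, against 8.04 and 7.68 in DN2-3 cells (1.43 ± 0.20). Ikzf2 (0.69 ± 0.10), the chromatin organiser Satb1 (0.65 ± 0.10), Foxo1 (0.61 ± 0.10), Gata3, which specifies T cells (0.60 ± 0.12), and Lef1 (0.41 ± 0.09) rose by less, while Bcl11b, the factor that seals commitment, read 10.84 and 10.73 in DN4 and 10.43 on both DN2-3 arrays (adjusted p = 0.19). Without any 1 of the BDC/NOD arrays, 9 to 13 genes of the transition and 5 to 7 commitment factors were higher.

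Early progenitor genes moved the other way: 10 of 17 tested members were lower and none higher, and all 17 differences were below 0, with a median of -0.59. Kit, the stem cell factor receptor, read 9.02 and 8.83 in BDC/NOD DN4, against 9.87 on both BDC/NOD DN2-3 arrays (-0.95 ± 0.14, adjusted p = 0.00081). Spi1, which encodes the myeloid and progenitor factor PU.1, was lower by at least 0.77 and the progenitor marker Cd34 by at least 0.90, with neither above background in DN4 cells. Bcl11a (-1.05 ± 0.12) and Erg (-1.04 ± 0.10), 2 more progenitor factors, read above background at both stages. Id2, an inhibitor of E proteins, read 8.46 and 8.39 in DN4, against 9.27 and 9.19 in DN2-3 cells (-0.81 ± 0.14), whereas Id3 read 7.50 and 7.45 in DN4 against 7.57 and 7.51 in DN2-3 cells (adjusted p = 0.82). Without DN4 replicate 1 or DN2-3 replicate 2, 6 progenitor genes were lower.

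Notch receptors on thymocytes, whose signals drive the DN stages, gave no common direction. Of 22 tested genes of the pathway 2 were higher and 3 lower, with a median of -0.08. The target gene Hes1 read 11.15 and 11.22 in BDC/NOD DN4, against 10.78 and 10.64 in BDC/NOD DN2-3 cells (0.48 ± 0.08, adjusted p = 0.0020). Nrarp, another target and a feedback inhibitor, read 6.16 and 6.12 in DN4 against 6.85 and 7.04 in DN2-3 cells (-0.80 ± 0.16), and Lfng, the glycosyltransferase that tunes Notch, differed by -0.82 ± 0.13. The receptors Notch1 (-0.26 ± 0.23) and Notch3 (-0.11 ± 0.21) did not pass. The third lower member was Il2ra, which the sort chose.

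Cytokine receptor genes had 9 of 29 tested members higher and 5 lower. Il7r, the receptor chain for the survival factor interleukin-7, read 9.59 and 9.51 in BDC/NOD DN4, against 10.42 and 10.41 in BDC/NOD DN2-3 cells (-0.87 ± 0.11, adjusted p = 0.00019). Socs2, a feedback inhibitor that STAT5 induces below cytokine receptors, read 6.72 and 7.12 in DN4, against 9.54 and 9.79 in DN2-3 cells (-2.75 ± 0.14), and its second probe set differed by -1.49. Cish, a related STAT5 target, read 6.86 and 6.61 in DN4 and 7.40 and 7.42 in DN2-3 cells (-0.68 ± 0.12, adjusted p = 0.0026). Kit and Il2ra were the other lower members. The genes Ifngr2 (0.85 ± 0.13) and Il6st (0.80 ± 0.11), receptor chains for interferon-gamma and the interleukin-6 family, led the higher ones, of which 4 to 6 were called without any 1 of the BDC/NOD arrays. The windows of Il2ra (chr2:11642542-11642841, plus strand) and Cish (chr9:107296409-107296708, plus strand) are shown as 2 genes of interleukin-2 and interleukin-7 signalling that were both lower, Il2ra being a gene of the sort, with capitals as above.
Il2ra: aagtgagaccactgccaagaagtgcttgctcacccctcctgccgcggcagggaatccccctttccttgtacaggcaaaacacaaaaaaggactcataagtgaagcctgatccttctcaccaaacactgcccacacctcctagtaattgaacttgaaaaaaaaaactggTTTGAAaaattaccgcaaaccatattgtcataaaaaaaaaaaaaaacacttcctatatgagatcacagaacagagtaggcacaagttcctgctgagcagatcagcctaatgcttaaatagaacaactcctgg
Cish: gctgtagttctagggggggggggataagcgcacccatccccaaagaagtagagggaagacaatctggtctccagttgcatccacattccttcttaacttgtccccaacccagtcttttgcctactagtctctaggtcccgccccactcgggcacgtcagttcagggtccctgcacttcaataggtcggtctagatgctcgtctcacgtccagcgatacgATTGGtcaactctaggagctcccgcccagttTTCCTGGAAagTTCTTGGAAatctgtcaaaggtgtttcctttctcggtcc

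Cish holds 2 STAT matches, with first bases at 1 and 12 from the gene start, and a reverse CCAAT at -31, and Il2ra holds a TTTGAA at -82. The STAT motif is in 8.3% of all 32851 windows. It is in 7.98% of the 376 windows of genes called lower, in 7.78% of the 900 windows of genes called higher and in 6.73% of the windows of all genes tested.

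The recombination and pre-TCR genes, which mark the stage at which endogenous TCR genes are rearranged, were called about as often as all genes tested (11.1%). Rag1, a subunit of the recombinase, read 9.97 and 10.08 in BDC/NOD DN4, against 9.45 and 9.69 in BDC/NOD DN2-3 cells, a difference of 0.46 ± 0.24 that did not pass (adjusted p = 0.27). Rag2 (-0.12 ± 0.22), the terminal transferase gene Dntt (0.14 ± 0.11) and Ptcra, the pre-TCR alpha chain (-0.10 ± 0.16), did not pass either, and for Dntt and Ptcra all 4 arrays lay within a narrow range. Of 11 tested recombination genes 1 was higher, the DNA ligase gene Lig4 (0.55 ± 0.16), and of 6 tested pre-TCR and CD3 chain genes 1 was higher, Cd247, which encodes the zeta chain (0.46 ± 0.12). Cd3e read 12.91 and 12.83 in DN4 and 12.72 and 12.59 in DN2-3 cells (adjusted p = 0.18). Neither Lig4 nor Cd247 was called without any 1 of the 4 BDC/NOD arrays. The Rag1 window (chr2:101649483-101649782, minus strand) is shown because the stage change of Rag1 differed between BDC/NOD and BDC/B6g7, with capitals as above.
Rag1: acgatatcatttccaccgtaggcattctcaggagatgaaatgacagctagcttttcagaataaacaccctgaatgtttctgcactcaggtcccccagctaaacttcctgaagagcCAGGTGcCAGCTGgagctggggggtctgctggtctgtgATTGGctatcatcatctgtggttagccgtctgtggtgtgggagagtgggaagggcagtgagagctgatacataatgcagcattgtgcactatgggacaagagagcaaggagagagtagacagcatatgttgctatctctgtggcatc

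It holds CAGGTG at -135, CAGCTG at -128 and a reverse CCAAT at -97. CAGCTG is in 16.3% of all windows, in 18.3% of those of genes called higher and in 11.4% of those of genes called lower in BDC/NOD DN4.

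Genes of DNA replication and mitosis, which are high in dividing cells, had small negative differences. All 50 tested members of the replication list and 50 of 51 of the mitosis list had differences below 0, with medians of -0.25 and -0.22, but only 7 and 3 passed the test, all lower. Over all genes tested 11.1% were called in either direction and 3.41% were called lower. Mitosis genes were thus called less often than all genes tested. Pole2, a subunit of DNA polymerase epsilon, read 9.74 and 9.72 in BDC/NOD DN4, against 10.14 and 10.18 in BDC/NOD DN2-3 cells (-0.43 ± 0.08, adjusted p = 0.0038). Thymidine kinase gene Tk1 (-0.40 ± 0.10), the clamp loader gene Rfc4 (-0.39 ± 0.09) and the origin licensing gene Cdc6 (-0.38 ± 0.10) differed by as much. In mitosis, Pttg1, which encodes securin (-0.49 ± 0.12), Anln, an actin-binding protein of the cleavage furrow (-0.36 ± 0.09), and the mitotic kinase gene Cdk1 (10.72 and 10.80 in DN4 against 11.09 and 11.11 in DN2-3 cells, -0.34 ± 0.10) passed. Mki67, which encodes the proliferation marker Ki-67, read 11.54 and 11.49 in DN4 and 11.75 and 11.57 in DN2-3 cells (adjusted p = 0.32). The numbers of calls were 13 and 11 after another quantile normalization, 19 and 16 without either NOD DN2-3 array, and 33 and 24 with array weights, and at most 2 and 0 without any 1 of the BDC/NOD arrays, while the medians stayed between -0.27 and -0.19 in these settings.

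Of the G1 genes 3 were called, all higher and all inhibitors of cell cycle entry: Rbl2, which encodes the pocket protein p130 (0.83 ± 0.10), Cdkn2c, which encodes p18 (0.50 ± 0.12), and Cdkn1b, which encodes p27 (0.37 ± 0.10, and 0.77 by its second probe set). The list had 23 tested members, so the share called was near the 11.1% of all genes tested. Of the 23 differences 7 were above and 16 below 0, with a median of -0.07. Among the members that did not pass was Ccne1, which encodes cyclin E1, at 9.81 and 9.72 in BDC/NOD DN4 and 9.75 and 9.77 in BDC/NOD DN2-3 cells. A single G1 gene was called without any 1 of the BDC/NOD arrays.

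The windows of Pole2 (chr12:69228141-69228440, minus strand) and Cdk1 (chr10:69352863-69353162, minus strand) are shown as called members of the 2 lists that hold motifs of these gene classes, and were chosen for that.
Pole2: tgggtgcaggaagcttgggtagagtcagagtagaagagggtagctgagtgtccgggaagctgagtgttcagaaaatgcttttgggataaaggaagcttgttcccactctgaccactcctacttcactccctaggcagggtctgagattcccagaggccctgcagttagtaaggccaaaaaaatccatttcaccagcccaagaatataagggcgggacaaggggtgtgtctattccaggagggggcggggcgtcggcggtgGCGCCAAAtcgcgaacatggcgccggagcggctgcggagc
Cdk1: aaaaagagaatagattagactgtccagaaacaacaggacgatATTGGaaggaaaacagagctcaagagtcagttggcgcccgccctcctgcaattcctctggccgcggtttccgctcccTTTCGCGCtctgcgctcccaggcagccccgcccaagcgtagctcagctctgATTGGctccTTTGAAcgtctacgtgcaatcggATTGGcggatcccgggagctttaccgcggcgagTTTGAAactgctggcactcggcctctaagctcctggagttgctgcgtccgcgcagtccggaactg

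Pole2 holds a reverse TTTGGCGC at base 11 from the gene start. Cdk1 holds TTTCGCGC at -131, a reverse CCAAT at -208, -80 and -48, and TTTGAA at -71 and -15. Of 47 windows of the mitosis list 74.5% hold TTTGAA and 76.6% CCAAT, against 11.8% and 37.5% of the windows of genes tested and 17.9% and 37.4% of all windows. Of 45 windows of the replication list 17.8% hold TTTCGCGC and 15.6% TTTGGCGC, against 0.710% and 1.01% of the windows of genes tested and 0.323% and 0.514% of all windows.

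The lists of growth and metabolism were called at a share near or under the 11.1% of all genes tested. Among 43 Myc and ribosome biogenesis genes 4 were lower, for example the nucleolar genes Nolc1 (-0.44 ± 0.11), Noc4l (-0.41 ± 0.09) and Nop16 (-0.36 ± 0.10), and 1 was higher, the Myc antagonist Mxd4 (0.54 ± 0.14). Of all genes tested 3.41% were called lower. Of the 43 differences in the list 40 were below 0, with a median of -0.26. No member was called without any 1 of the BDC/NOD arrays, and 18 were lower without either NOD DN2-3 array. Myc read 10.47 and 10.57 in BDC/NOD DN4 and 10.79 and 10.76 in BDC/NOD DN2-3 cells (adjusted p = 0.51). The other lists were 58 cytosolic ribosomal protein genes (none with limma, against 8 with array weights and 1 after another quantile normalization), 21 glycolysis genes (1 higher, Bpgm), 27 genes of lipid synthesis (1 lower, the desaturase gene Fads2), 35 histone genes (1 higher, H1f2) and 17 MHC class I and antigen presentation genes (2 higher, Cd1d1 and H2-T24).

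Among 39 interferon response genes 5 were higher and 3 lower. The 3 lower genes were the interferon-induced membrane protein genes Ifitm1, Ifitm2 and Ifitm3, whose products block virus entry and which are also expressed by progenitors. Ifitm2 read 8.23 and 8.39 in BDC/NOD DN4, against 10.68 and 11.00 in BDC/NOD DN2-3 cells (-2.53 ± 0.12), and its other probe sets differed by -1.87 and -2.19. The members of this family are close paralogues, so their probe sets may share signal and single values are uncertain. Usp18, which removes ISG15 from proteins, led the 5 higher ones (1.22 ± 0.18), of which 3 were called without any 1 of the BDC/NOD arrays. The 8 Gimap GTPases, a gene cluster of lymphocyte survival on chromosome 6, all had differences above 0, and Gimap4 (1.16 ± 0.12), Gimap8 (1.09 ± 0.13), Gimap6 (1.01 ± 0.11) and Gimap5 (0.46 ± 0.14) passed, the number being 3 after another quantile normalization or centring on array medians. Of 18 Bcl2 family and death genes, Cflar (0.60 ± 0.11), Birc3 (0.56 ± 0.12) and Bmf (0.45 ± 0.13) were higher, and the survival gene Bcl2 was lower, at 11.17 and 11.24 in DN4 against 11.55 and 11.61 in DN2-3 cells (-0.37 ± 0.11, adjusted p = 0.043).

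Genes outside the lists completed the largest changes. Rgs6, a regulator of G protein signalling, read 7.79 and 7.88 in BDC/NOD DN4 cells and was not above background in BDC/NOD DN2-3 cells, a rise of at least 1.86 (adjusted p = 3.7e-08). The toll-like receptor gene Tlr1 (2.04 ± 0.18), the transcript AA467197 (2.02 ± 0.18), which read 8.36 and 9.03 in DN4 against 6.69 and 6.66 in DN2-3 cells, Plcl1 (1.90 ± 0.13), the vesicle GTPase gene Rab27b (1.79 ± 0.13), the fatty acid transporter gene Slc27a6 (1.78 ± 0.12), Tdrkh (1.75 ± 0.15) and Glcci1 (1.74 ± 0.25) were higher. Lower were Lilr4b (-1.86 ± 0.19), the adhesion receptor gene Adgrg3 (-1.75 ± 0.19), Bex6 (-1.65 ± 0.20) and the junction protein gene Afdn (-1.37 ± 0.12). Scin, B4galnt2 and Serpinb1a were lower by at least 1.32, 1.36 and 0.68, with DN4 cells not above background. Rgs18 passed the test but lay under the background level at both stages, so no difference is given.

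Markers of other cell types were measured beside these results. Of the 13 B cell, 27 myeloid and dendritic cell and 6 erythroid markers matched, 5, 10 and 1 were at or under background on all 4 BDC/NOD arrays, among them Cd79a, Ms4a1, Csf1r, Itgam, Itgax and Klf1. Above background were 7, 12 and 5 on both DN4 arrays, and 7, 13 and 5 on both DN2-3 arrays, with Cd79b, Cst3 and Slc4a1 the brightest. None of these markers was called higher in DN4 cells. The 1 called member was Mpo, the peroxidase of myeloid granules, which was lower in DN4 cells (-0.69 ± 0.18, adjusted p = 0.025), as were 10 of the 17 progenitor genes above. The summed intensity of the B cell markers was 1131 to 1166 in DN4 and 1171 to 1189 in DN2-3 cells, that of the myeloid markers 3926 to 3972 in DN4 and 4183 to 4300 in DN2-3 cells, and that of the erythroid markers 538 to 539.6 in DN4 and 555.2 to 568.3 in DN2-3 cells. The sum of the 17 thymic stroma markers was 3002 to 3037 in DN4 and 2583 to 2655 in DN2-3 cells, with Krt5 and Dcn at background and the endothelial marker Pecam1 as the 1 called member. Mature T cell markers, which also belong to developing thymocytes, summed to 36290 to 37033 in DN4 and 31214 to 32480 in DN2-3 cells, and 10 of 22 tested members were higher and 2 lower. They rose beside the trafficking, TCR signalling and costimulatory genes, and 23 of the 24 matched were above background at both stages. Ms4a4b (1.35 ± 0.19) was the largest of the 10. NK cell markers summed to 5455 to 6004 in DN4 and 4897 to 5018 in DN2-3 cells, with Gzma as the brightest. At background were 9 of 16, among them Ncr1, Klrb1c and Eomes. Of 7 tested members, Gzma (0.54 ± 0.14) and Prf1 (0.47 ± 0.09) were higher and Gzmb was lower. The other differences were below 0 too, 5 of the 7 in all, with a median of -0.25. Mast cell markers summed to 5646 to 6107 in DN4 and 3868 to 4027 in DN2-3 cells, with 9 of 15 at background, among them Fcer1a and Tpsab1, and Cpa3 as the brightest. Their 2 tested members went opposite ways, Cpa3 higher and Kit lower. The part of such cells in the results was not tested.

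The stage change of BDC/NOD cells was then set beside those of the other 3 kinds of mice, which share no array with it. Across the 10689 genes it correlated with the stage change in BDC/B6g7 (Pearson r = 0.769), but not with that in NOD (r = -0.059) or B6g7 (r = -0.078). Genes are not independent replicates, and these are descriptions. Of the 820 genes higher in BDC/NOD DN4, 768 (93.7%) were also higher in BDC/B6g7 DN4, which is 35.2% of the 2181 higher there (20.4% of all genes tested). In NOD, where 26.3% of all genes were higher and 12.3% lower, 132 (16.1%) of the 820 were higher and 283 (34.5%) lower. In B6g7, with 17.8% of all genes higher and 25% lower, 96 (11.7%) were higher and 401 (48.9%) lower. Of the 365 lower genes 313 (85.8%) were lower in BDC/B6g7, as were 30.4% of all genes, and 134 (36.7%) in NOD, where 115 were higher. In this fit the BDC/NOD change was the smallest of the 4 in the number of calls, 1185 against 5426 in BDC/B6g7 (50.8% of genes tested), 4124 in NOD (38.6%) and 4571 in B6g7 (42.8%), and in the median absolute difference, 0.149 against 0.321, 0.257 and 0.275 log2.

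**Figure D3:**
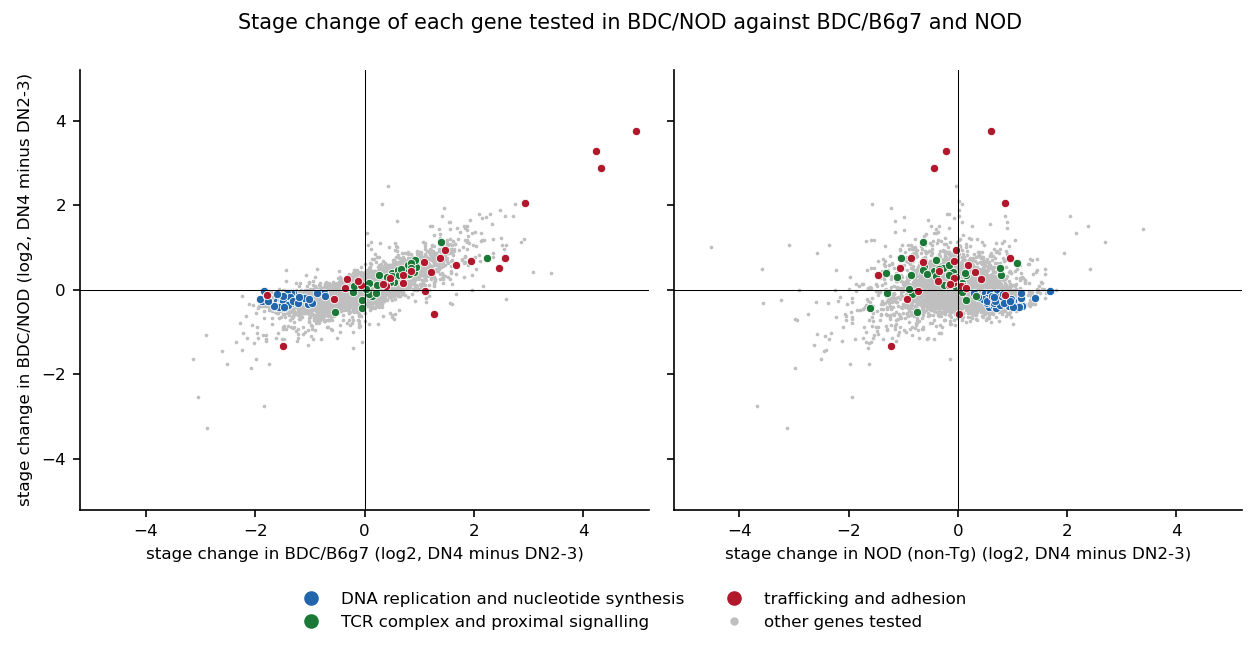
Stage change of each gene tested (log2, DN4 minus DN2-3) in BDC/NOD (y axis) against BDC/B6g7 (left, r = 0.769) and against non-transgenic NOD (right, r = -0.059), with 3 gene lists in colour. Replication genes lie close to 0 on the y axis in both panels, below 0 on the x axis in BDC/B6g7 and above 0 in NOD.

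The difference between the stage changes was tested for each gene. Against BDC/B6g7, 1684 genes (15.8%) differed, 1305 (12.2%) of them with a higher and 379 (3.55%) with a lower value in BDC/NOD. After another quantile normalization 1016 were higher and 735 lower. Against NOD, 3569 genes (33.4%) differed, 1376 (12.9%) with a higher and 2193 (20.5%) with a lower value in BDC/NOD. These numbers were 1064 and 2608 after centring on array medians, and 1717 and 1885 after another quantile normalization. The excess of lower values thus depended on the normalization. Both tests use the same BDC/NOD arrays and are therefore not independent. Without BDC/NOD DN2-3 replicate 1 or 2, BDC/NOD DN4 replicate 2 or BDC/B6g7 DN4 replicate 2, the count against BDC/B6g7 was 989, 1052, 901 and 1100, and it was 2901 without either NOD DN2-3 array. Without the 4 male or the 4 female BDC arrays each BDC group held 1 array, and far fewer genes passed in both tests. The median difference over all genes tested was then 0.068 and 0.043 log2 against BDC/B6g7, and -0.082 and -0.092 against NOD. All NOD arrays were from female mice. Without the female BDC arrays the difference from NOD therefore set male against female mice.

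Cell cycle genes differed in both tests. The median stage change of the replication list was -0.25 in BDC/NOD, against -1.47 in BDC/B6g7, 0.83 in NOD and 0.44 in B6g7. Of its 50 members 48 had a higher stage change in BDC/NOD than in BDC/B6g7, and 49 a lower one than in NOD, with none the other way. Of 51 mitosis genes the counts were 43 and 49, and of 43 Myc and ribosome biogenesis genes 29 and 33, with 1 the other way against NOD. Over all genes tested 12.2% were higher than in BDC/B6g7 and 20.5% lower than in NOD. Within 1 sex each BDC group held 1 array, and the replication count against BDC/B6g7 did not hold there. The replication count against NOD was smaller without the male or the female BDC arrays. In the second case it set male BDC/NOD against female NOD mice. In levels, Cdc6 read 9.49 and 9.56 in BDC/NOD DN4 against 9.88 and 9.94 in BDC/NOD DN2-3 cells, 8.01 and 7.85 in BDC/B6g7 DN4 against 9.54 and 9.51 in BDC/B6g7 DN2-3 cells, and 10.34 and 10.19 in NOD DN4 against 9.01 and 9.18 in NOD DN2-3 cells. For Cdc6, BDC/NOD DN4 cells thus lay between the DN4 cells of the other 2, and the DN2-3 cells of BDC/NOD were the highest of the 3. The median level of the replication list in DN4 cells was 10.05 in BDC/NOD, 8.89 in BDC/B6g7 and 10.5 in NOD. In DN2-3 cells it was 10.3 in BDC/NOD, 10.35 in BDC/B6g7 and 9.68 in NOD, so BDC/NOD was not the highest there. The stage change of Ccne1 was higher by 1.49 ± 0.12 in BDC/NOD than in BDC/B6g7 and differed by -1.79 ± 0.12 from that in NOD. The stage changes of Birc5, the mitotic survivin gene (1.37 ± 0.17 and -1.73 ± 0.17), and Rrm2, a subunit of ribonucleotide reductase (1.81 ± 0.28 and -1.71 ± 0.28), differed in the same directions.

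**Figure D4:**
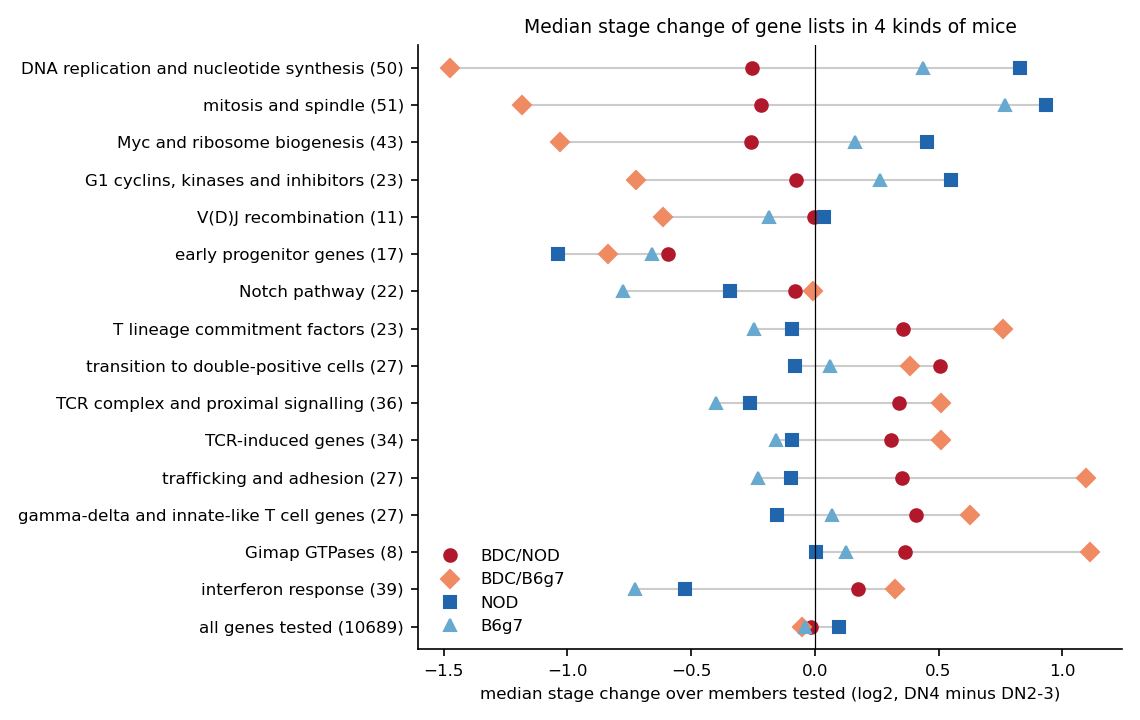
Median stage change (log2, DN4 minus DN2-3, x axis) over the tested members of 15 gene lists and of all genes, with 1 marker for each kind of mouse and the number of tested members in brackets. BDC/NOD (red circles) lies between BDC/B6g7 and the 2 non-transgenic kinds for the replication, mitosis and ribosome biogenesis lists, and on the side of BDC/B6g7, above 0, for the TCR signalling and trafficking lists.

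Several migration genes rose by less in BDC/NOD than in BDC/B6g7 cells. Of 27 trafficking genes 13 had a lower and 3 a higher stage change in BDC/NOD than in BDC/B6g7, where the median was 1.10, while 13 had a higher and 1 a lower one than in NOD, where it was -0.10. Over all genes tested 3.55% had a lower and 12.2% a higher one than in BDC/B6g7, so the 3 higher genes were near that share. Against NOD 12.9% of all genes had a higher and 20.5% a lower one. Ccr8 rose by 3.75 in BDC/NOD, against 4.97 in BDC/B6g7, and read 6.54 on both NOD DN4 arrays against 5.81 and 6.05 in NOD DN2-3 cells. Ccr9 rose by 3.28 in BDC/NOD and 4.24 in BDC/B6g7, against -0.22 in NOD, where it did not pass. S1pr1 differed widely in DN4 cells, which read 9.67 and 9.77 in BDC/NOD, 11.38 and 11.62 in BDC/B6g7 and 6.90 and 7.07 in NOD. Of 36 TCR signalling genes 3 had a lower stage change in BDC/NOD than in BDC/B6g7 and none a higher one, and 18 had a higher one than in NOD and none a lower one. Against BDC/B6g7 the count was 7 without either NOD DN2-3 array and 1 or 2 without any 1 array of the BDC groups, and against NOD it was 26 higher without NOD DN2-3 replicate 1, and 18 higher and 5 lower without replicate 2. Of 11 recombination genes 6 had a higher stage change in BDC/NOD than in BDC/B6g7 and none a lower one, with 4 to 6 without any 1 array of the BDC groups. Rag1 fell in BDC/B6g7 to 7.04 and 6.49 in DN4 cells, against 8.39 and 8.02 in DN2-3 cells, and the stage change in BDC/NOD exceeded that in BDC/B6g7 by 1.90 ± 0.34 (adjusted p = 0.0025).

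Some genes changed in BDC/B6g7 and not detectably in BDC/NOD cells. Samhd1, an enzyme that degrades nucleotides, read 6.78 and 7.05 in BDC/NOD DN4 against 6.47 and 6.59 in BDC/NOD DN2-3 cells, and 9.92 and 10.49 in BDC/B6g7 DN4 against 6.86 and 6.73 in BDC/B6g7 DN2-3 cells (difference of the stage changes -3.02 ± 0.24, adjusted p = 1.6e-05). Icos (-2.80 ± 0.20) and the factor Hlf (-1.97 ± 0.21) had the same pattern. So had the prohormone convertase gene Pcsk1 and Gimap3, which were not above background in BDC/B6g7 DN2-3 cells, with differences of -2.42 and -1.98 when low signals were set to the background level. Itgb3 rose in both kinds of mouse, by 0.52 in BDC/NOD and 2.46 in BDC/B6g7. In the other direction, the adhesion gene Mpzl2 differed by 1.82 ± 0.21. Rgs6, which was not above background at either stage in BDC/B6g7, differed by 1.86 with low signals set to the background level. Mpzl2 fell in both, to 10.17 and 10.19 in BDC/NOD DN4 against 11.33 and 11.18 in BDC/NOD DN2-3 cells, and to 7.64 and 7.57 in BDC/B6g7 DN4 against 10.54 and 10.45 in BDC/B6g7 DN2-3 cells.

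Against NOD, the largest positive differences were in genes that rose in BDC/NOD DN4 cells, several of which fell by more in NOD. Cpa3, a mast cell carboxypeptidase also made by DN progenitors, read 12.14 and 12.29 in BDC/NOD DN4 against 11.17 and 11.25 in BDC/NOD DN2-3 cells, and 6.93 and 6.72 in NOD DN4 against 11.67 and 11.01 in NOD DN2-3 cells (difference 5.52 ± 0.28, adjusted p = 1.3e-07). Rgs1 (4.16 ± 0.43), the flippase gene Atp8b4 (4.09 ± 0.14), AA467197 (3.60 ± 0.26), Ccr9 (3.49 ± 0.23) and Cd53 (3.44 ± 0.12) followed. The stage changes in BDC/NOD and NOD were 1.01 and -4.51 for Cpa3, and 1.06 and -3.10 for Rgs1. They were 0.49 and -3.60 for Atp8b4, and 0.86 and -2.585 for Cd53. For these genes the fall in NOD was the larger part of the difference. For AA467197 and Ccr9 the rise in BDC/NOD was the larger part. The largest negative differences were in genes that rose by less in BDC/NOD or did not rise: Ikzf3 (-1.96 ± 0.29), Cd2 (-1.91 ± 0.15), Ccnb1ip1 (-1.81 ± 0.22), the peroxiredoxin gene Prdx4 (-1.81 ± 0.20), Ccne1 and Birc5. Ikzf3, for example, rose by 1.43 in BDC/NOD and by 3.38 in NOD. Cd69 rose in BDC/NOD and fell in NOD, to 9.41 and 9.25 in NOD DN4 against 10.54 and 10.57 in NOD DN2-3 cells.

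**Figure D5:**
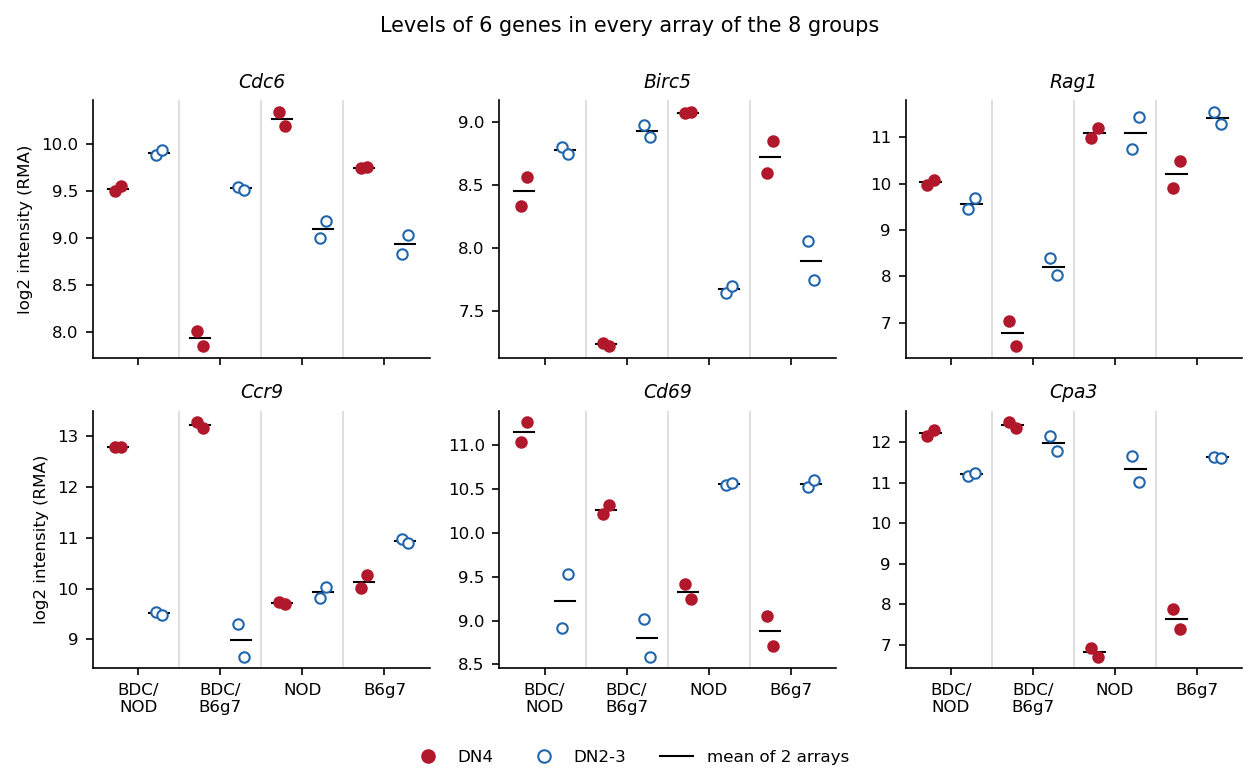
Log2 intensity (y axis) of 6 genes on each of the 16 arrays, by kind of mouse (x axis), each panel on its own scale, DN4 filled and left of DN2-3 open, with a line at the mean of 2 arrays. Cdc6 (-0.38, called) and Birc5 (-0.33, not called) are slightly lower in DN4 cells in BDC/NOD, fall further in BDC/B6g7 and rise in NOD and B6g7 DN4 cells. Ccr9, Cd69 and Cpa3 are higher in DN4 cells in BDC/NOD, and Cpa3 is low in the DN4 cells of NOD and B6g7.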

How the data were processed

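RNA of the 16 samples was hybridised to 1-colour Affymetrix Mouse Gene 1.0 ST arrays. The authors deposited linear intensities per probe set, which Affymetrix Power Tools made with RMA per the submitters' processing notes; versions and settings are not given in the sources used here. Here log2 was taken, 21157 of 25108 probe sets with 1 gene symbol were kept (1341 had several, 2610 none), and the brightest probe set stood for each of 19531 genes. Genes whose highest group mean reached 7.05 log2 (an intensity of 132.9) were tested, 10689 in all.

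Limma 3.58.1 (R 4.3.3) fitted all 8 groups with 8 residual degrees of freedom, moderated variances and two-sided tests with Benjamini-Hochberg adjustment at 0.05. Differences between stage changes were contrasts of the same fit. An exact permutation test of 2 arrays against 2 cannot go below p = 0.3333. The fit was also run on simulated data, in which a gene had independent noise of the same spread in all groups. The real groups differ in spread, so that run checks the working of the fit and not the counts reported here. The number of arrays limits the precision.

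The members and the gene lists were chosen with earlier results of these data known, and 813 of 878 list entries matched. By rule, the text names a list of key genes, the 15 largest changes in each direction, up to 4 called members per list and the 6 largest differences between stage changes in each direction, without predicted, Y-linked and small nucleolar genes. Further list members were named after their values were seen. Promoter windows came from RefSeq (GRCm38.p6), which covered 32851 promoters here. Alternatives were other filters, normalizations, variance models, blocks and left-out arrays.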

Additional observations from a re-analysis of the deposited data

Results flagged for a closer look

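The stage change of 1684 genes differed between BDC/NOD and BDC/B6g7, and that of 3569 genes between BDC/NOD and NOD, by limma tests of the difference itself. Both tests use the 4 BDC/NOD arrays. Against BDC/B6g7 the genes named on the positive side were H2ac4 (2.08 log2), Rgs6 (2.02), Rag1 (1.90), Mpzl2 (1.82), Adgrd1 (1.82) and Rrm2 (1.81). Those on the negative side were Samhd1 (-3.02), Icos (-2.80), Pcsk1 (-2.67), Gimap3 (-2.08), Hlf (-1.97) and Itgb3 (-1.94). Signals not above background enter the values of 5 of these genes, which have no exact size or rank. With such signals set to the background level they were 2.05 for the histone gene H2ac4, 1.86 for Rgs6, 1.81 for the adhesion receptor gene Adgrd1, -2.42 for Pcsk1 and -1.98 for Gimap3. H2ac4 and Adgrd1 were not above background at either stage in BDC/NOD.

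Against NOD the largest positive differences were in Cpa3 (5.52), Rgs1 (4.16), Atp8b4 (4.09), AA467197 (3.60), Ccr9 (3.49) and Cd53 (3.44). The largest negative ones were in Ikzf3 (-1.96), Cd2 (-1.91), Ccnb1ip1 (-1.81), Prdx4 (-1.81), Ccne1 (-1.79) and Birc5 (-1.73).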

How the results depend on the processing

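The number of genes called in the BDC/NOD stage contrast, 1185, was 2077 with the replicate number as a random block, 3755 with array weights, 3316 with only the arrays compared, 116 without the 4 male arrays and 67 without the 4 female BDC arrays. Leaving out 1 array gave 417 to 2359. A group left with 1 array was assumed to vary like the others. It stayed within 1.5 times of the reported count when all genes were tested (934), with a minimum intensity of 120 (1179), with each probe set kept (1309), another quantile normalization (1372), centring on array medians (1065), sex as a term (1122), trended variances (1209) and raised low signals (1177). The cause of these shifts was not tested. The replicate numbers did not pair the arrays in all groups (correlation of deviations 0.0915 in BDC/NOD, 0.271 in BDC/B6g7, 0.585 in NOD and 0.102 in B6g7), and with the number as a fixed replicate block 1668 genes were called, 1172 of the 1185 among them.

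The difference from BDC/B6g7, 1684 genes, was 2608 with the random block, 3245 with array weights, 3197 with only the arrays compared, 12 without the 4 male and 5 without the 4 female BDC arrays, and 901 to 2901 without 1 array. The difference from NOD, 3569 genes, was 845 and 815 without the male and the female BDC arrays, and 2459 to 5326 without 1 array.

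Reversals touched uncalled genes near 0. Ccne1 was -0.0357 after quantile normalization and -0.0512 without the male arrays, Rrm2 0.0518 without the male arrays, and Hlf 0.0441 after quantile normalization, 0.0191 after centring and 0.0801 without the female BDC arrays. Without the female BDC arrays Icos was 0.0661, Notch3 0.00962 and Rag2 0.0543. Without 1 array Adgrd1 ranged from -0.00919 to 0.0337, Ccne1 from -0.0412 to 0.0465, Hlf from -0.125 to 0.115, Icos from -0.444 to 0.0269 and Rrm2 from -0.102 to 0.0336. Signals near 5.98 log2 limit what dim genes can show.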
